A study of Mus musculus with 89 samples.

Results

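The genes of 9 enzymes of the intestinal brush border were followed along the crypt-villus axis of the mouse jejunum and across its cell types. They are the disaccharidase genes Sis, Lct and Treh, the peptidase genes Anpep, Mme, Dpp4, Ace and Enpep, and the intestinal alkaline phosphatase gene Alpi. The genes were chosen by name, with earlier results of these data known. All 9 were present among the 27538 genes of the clump table and the 23379 genes of the single-cell table. Both tables hold MARS-seq unique molecular identifiers (UMIs) from the jejunal epithelium of untreated C57BL/6 male mice fed regular chow. Mice were labelled 3 months old, except that 3 plates of single cells of mouse 2 were labelled 4 months old. Clumps, small groups of cells that had been neighbours in the tissue, were released with EDTA and sorted by DNA content, as pairs (4n) from mice 1 to 5 and as larger clumps (above 4n) from mice 1, 4 and 5. Mouse 6, whose 4 plates were labelled above 2n, was kept apart. Single cells came from 4 mice that are numbered separately from the clump mice. They were sorted with antibodies to Epcam, CD45 and CD24, and some plates were enriched for CD24+ cells, so that the shares of cell types were set by the sort.

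The brush border is the layer of microvilli on the luminal face of enterocytes, the absorptive cells that are born in the crypt and move up the villus to be shed at its tip. Enzymes anchored in it carry out the last steps of digestion. Sucrase-isomaltase (Sis), lactase (Lct) and trehalase (Treh) split disaccharides into sugars that can be absorbed. Aminopeptidase N (Anpep) and glutamyl aminopeptidase (Enpep) remove single residues from the amino end of peptides, dipeptidyl peptidase 4 (Dpp4) removes dipeptides from that end, angiotensin-converting enzyme (Ace) removes dipeptides from the carboxyl end, and neprilysin (Mme) cuts within peptides. Intestinal alkaline phosphatase (Alpi) removes phosphate groups from nutrients and from bacterial lipopolysaccharide.

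After filters, 5883 clumps of mice 1 to 5 were assigned to 3 zones by enterocyte landmark genes of the study, 3542 to the crypt, 1465 to the mid-villus and 876 to the tip. Ace and Lct are among those landmarks and were taken out, so that no member placed the clumps in which it was measured. UMIs were summed per mouse and zone, which gave 89085 to 19064048 UMIs per sum, and the mouse was the replicate. Mouse 4 had 110 mid-villus and 29 tip clumps. Cell type markers were summed per zone as UMIs scaled to 1000000 UMIs of the sum (CPM). The enterocyte list, which holds no member, had median sums of 9148, 63753 and 78607 CPM in crypt, mid-villus and tip clumps, and the list for stem and dividing cells 581, 79.6 and 65.4 CPM. A Paneth cell list was at 9322, 747 and 661 CPM, and a goblet cell list at 4145, 4942 and 16321 CPM. In clumps, fewer enterocytes and less RNA of a gene per enterocyte cannot be told apart, and the part of these other cells in the differences between zones was not tested.

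All 9 genes are protein coding. In the GRCm38 annotation, Sis (chr3:72888557-72967863), Lct (chr1:128284756-128328318), Anpep (chr7:79821803-79861059), Dpp4 (chr2:62330073-62412231), Enpep (chr3:129269175-129332720) and Alpi (chr1:87098002-87101606) lie on the minus strand. Treh (chr9:44673233-44686305), Mme (chr3:63241537-63386030) and Ace (chr11:105967945-105989964) lie on the plus strand. The promoters of the genes with the earliest positions along the axis, Sis and Enpep, and of those with the latest, Alpi and Treh, are printed here, from 250 bases before to 50 bases after the RefSeq start site (GRCm38.p6). They are chr3:72967814-72968113 (minus strand), chr3:129332700-129332999 (minus), chr1:87101557-87101856 (minus) and chr9:44672983-44673282 (plus). Capitals mark TTTAT (the core bound by Cdx factors), GTTAAT (part of the HNF1 site), GATAA (GATA factors) and CAAAGTCCA (HNF4), searched on both strands.
Sis: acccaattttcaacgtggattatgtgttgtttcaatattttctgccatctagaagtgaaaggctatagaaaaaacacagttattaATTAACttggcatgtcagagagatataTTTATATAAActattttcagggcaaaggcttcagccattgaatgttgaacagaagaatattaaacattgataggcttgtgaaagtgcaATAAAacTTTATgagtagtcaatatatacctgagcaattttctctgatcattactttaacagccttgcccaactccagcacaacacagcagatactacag
Enpep: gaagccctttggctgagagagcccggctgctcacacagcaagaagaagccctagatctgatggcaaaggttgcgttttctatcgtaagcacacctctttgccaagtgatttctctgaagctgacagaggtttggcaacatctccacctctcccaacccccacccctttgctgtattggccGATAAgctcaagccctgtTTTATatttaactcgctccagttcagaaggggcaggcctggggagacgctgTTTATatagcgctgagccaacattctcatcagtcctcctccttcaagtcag
Alpi: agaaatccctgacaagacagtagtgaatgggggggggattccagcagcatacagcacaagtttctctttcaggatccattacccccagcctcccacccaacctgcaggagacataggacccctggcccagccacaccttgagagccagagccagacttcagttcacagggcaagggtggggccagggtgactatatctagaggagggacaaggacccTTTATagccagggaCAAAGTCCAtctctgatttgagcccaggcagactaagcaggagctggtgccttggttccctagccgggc
Treh: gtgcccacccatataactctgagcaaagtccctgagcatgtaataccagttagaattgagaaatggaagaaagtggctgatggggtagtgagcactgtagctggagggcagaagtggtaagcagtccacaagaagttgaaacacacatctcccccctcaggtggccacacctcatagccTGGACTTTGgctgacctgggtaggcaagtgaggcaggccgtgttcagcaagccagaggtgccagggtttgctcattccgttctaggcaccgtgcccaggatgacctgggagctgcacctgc

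The Sis promoter held 4 matches to TTTAT, of which those at -138 and -43 lay on the coding strand, and 1 to GTTAAT. The Enpep promoter held 2 matches to TTTAT and 1 to GATAA. CAAAGTCCA occurred in the Alpi promoter, at -19, and in the Treh promoter, at -71 on the other strand, and in no other of the 12 promoters listed for the 9 genes, some of which have several start sites. Among 32851 RefSeq promoters of this length, 40.01% held TTTAT, 7.10% GTTAAT, 25.4% GATAA and 0.475% CAAAGTCCA. These matches are descriptions of the letters, and binding was not measured. TATAAA, which can overlap TTTAT, was found in 5 of the 12 and in 13.6% of all promoters.

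**Figure D1:**
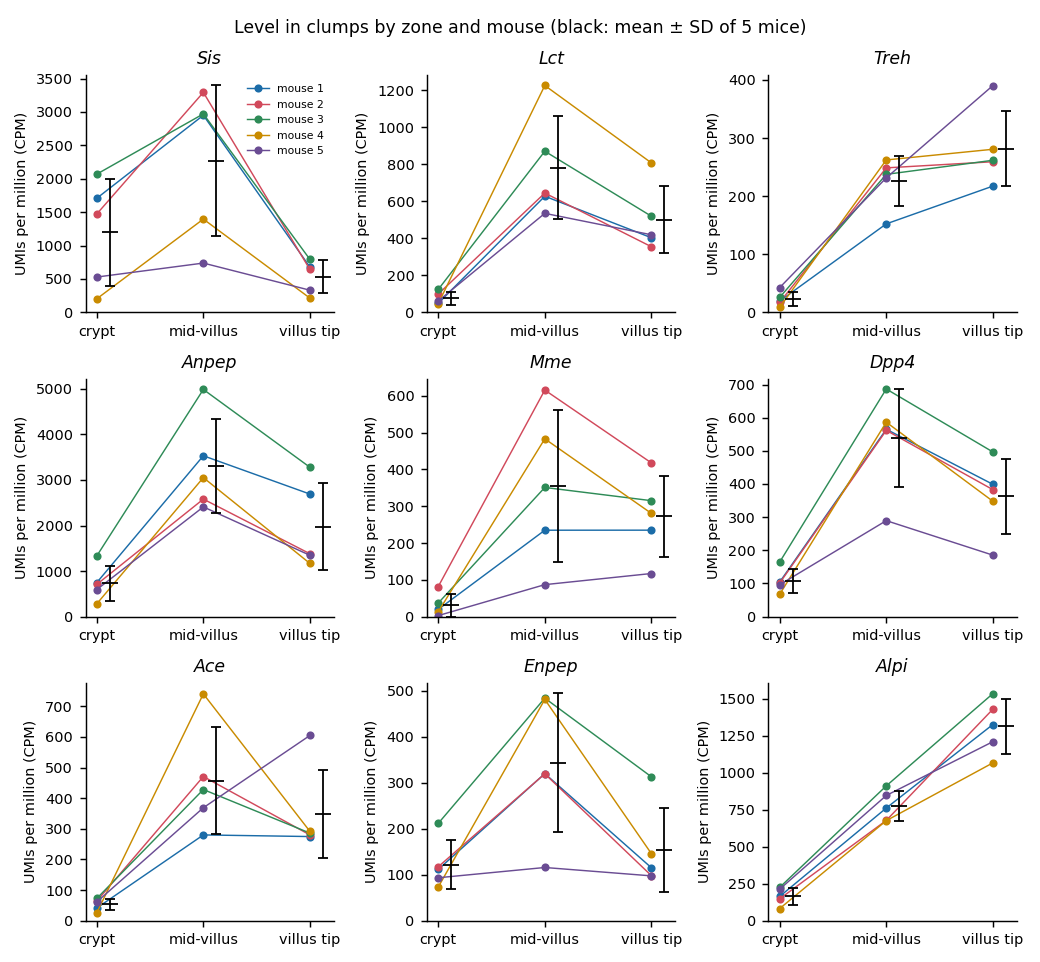
Level of each gene (CPM, linear axis from 0) in crypt, mid-villus and villus tip clumps, with 1 point per mouse (mice 1 to 5) and bars for the mean and SD. In all 5 mice the tip level of Alpi was above its mid-villus level and that of Sis was below it.

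From crypt to mid-villus, 8 of the 9 genes rose, and Sis did not pass the test. Every one of the 9 genes had a higher CPM in mid-villus than in crypt clumps of all 5 mice, a pattern found in 20.3% of the 7171 genes tested. In a quasi-likelihood test of edgeR, 8 of the 9 passed an adjusted p of 0.05, all of them higher, whereas 39.6% of all genes passed in either direction and 16.1% were higher (1154 genes, with 1688 lower, or 831 and 2015 with the size factors of DESeq2). The median log2 change of the 9 genes was 2.39. For 7 genes (all but Sis and Enpep) the lowest mid-villus value lay above the highest crypt value, as was the case for 6.9% of all genes.

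Among the disaccharidases, Sis had the highest crypt level relative to its own mid-villus level. Its crypt CPM was 1708, 1473, 2069, 203 and 529 in mice 1 to 5 (mean 1196 ± 796, SD, n = 5), and its mid-villus CPM was 2951, 3293, 2971, 1396 and 738 (2269.7 ± 1131). Mice 4 and 5 were the lowest in both zones, and the groups overlapped. The log2 change was 1.02 ± 0.50 (SE, adjusted p = 0.111, edgeR). With the mouse as a block it was 1.23, with an adjusted p of 2.29e-05, and all 9 genes then passed (54.1% of all genes). It also passed, at 2.21 (adjusted p = 0.00318), where the zones were cut as bins 1-2, 3-4 and 5-6 of the 6 bins described further on, a division that uses no mid-villus landmark.

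Lct rose by a median of 8.72-fold over the 5 mice on the CPM scale. It was at 49.2, 99.0, 124, 47.5 and 61.4 CPM in the crypt (76.2 ± 33.8) and at 628, 645, 871, 1227 and 535 CPM in the mid-villus (781 ± 278). Treh was the scarcer transcript, at 19.5, 17.3, 25.9, 8.71 and 42.7 CPM in the crypt (22.8 ± 12.7) and 152, 249, 237, 262 and 231 CPM in the mid-villus (226 ± 43.1). Neither gene's zones overlapped. The log2 changes were 3.44 ± 0.33 for Lct (adjusted p = 5.88e-07, edgeR) and 3.502 ± 0.41 for Treh (adjusted p = 3.78e-06).

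The peptidases also rose, by unequal amounts. Anpep went from 746, 706, 1332, 280.2 and 593 CPM in the crypt (732 ± 382) to 3532, 2580.0, 4989, 3052 and 2409 CPM in the mid-villus (3312 ± 1034). Its log2 change was 2.26 ± 0.39 (adjusted p = 9.92e-05, edgeR). Dpp4 went from 104, 101, 165, 67.3 and 96.1 CPM (107 ± 35.6) to 565, 562, 686, 586 and 289 CPM (538 ± 148), a log2 change of 2.39 ± 0.29 (adjusted p = 4.79e-06). In both genes every mid-villus value was above every crypt value.

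Ace, at 41.5, 64.4, 72.9, 26.2 and 61.4 CPM in the crypt (53.3 ± 19.0), reached 280.2, 471, 428, 741 and 369 CPM in the mid-villus (458 ± 174). Mme was low in the crypt, at 19.5, 81.7, 36.8, 13.1 and 2.67 CPM (30.7 ± 31.1), where the value of mouse 5 rested on 1 UMI, and was at 235, 616, 351, 483 and 86.8 CPM in the mid-villus (354 ± 207). The log2 changes were 3.20 ± 0.39 for Ace (adjusted p = 4.87e-06, edgeR) and 3.64 ± 0.55 for Mme (adjusted p = 2.95e-05). Enpep had the smallest change of the peptidases. It was at 112, 117, 212, 73.3 and 93.5 CPM in the crypt (121 ± 53.3) and at 319.7, 319, 484, 481 and 116 CPM in the mid-villus (344 ± 151), where mouse 5 fell within the range of the crypt values. Its log2 change was 1.56 ± 0.35 (adjusted p = 0.00128, edgeR), and in pairs alone it was 1.02 and did not pass (adjusted p = 0.136).

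Alpi was at 165, 148, 226, 82.7 and 214 CPM in the crypt (167 ± 57.2) and at 761, 678, 911, 676 and 846 CPM in the mid-villus (775 ± 104). Its log2 change was 2.29 ± 0.33 (adjusted p = 2.05e-05, edgeR). It was the gene of the set with the smallest spread between mice relative to its mean in the mid-villus.

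Between mid-villus and tip, Sis fell and Alpi rose, and the other 7 genes did not pass the test. The count of 2 of 9 genes was near the share of all genes, of which 12.4% passed in either direction, 6.51% higher (467 genes) and 5.91% lower (424 genes). No member passed without mouse 1, without mouse 2 or in pairs alone. The median log2 change of the 9 genes was -0.30.

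Sis was at 678, 642, 793, 213 and 332 CPM in tip clumps (532 ± 247), below the mid-villus level of the same mouse in all 5 mice, by a median ratio of 0.230. The range of the tip values met that of the mid-villus values only at mouse 5, at 738 CPM in the mid-villus. The log2 change was -1.76 ± 0.51 (adjusted p = 0.0274, edgeR). The call was lost without mouse 1, 2 or 3 (adjusted p = 0.114, 0.113 and 0.0791), in pairs alone (adjusted p = 0.113) and with zones cut by bins (-0.83, adjusted p = 0.255). Against the crypt, tip clumps differed by -0.75 on the log2 scale (adjusted p = 0.216), or by -0.65 with the mouse as a block (adjusted p = 0.0178) and -1.04 with mouse 6 included (adjusted p = 0.0465). With zones cut by bins the direction was the opposite, at 1.38 (adjusted p = 0.0294).

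Alpi was at 1325, 1429, 1534, 1066 and 1209.5 CPM in tip clumps (1313 ± 183), and its lowest tip value lay above its highest mid-villus value, which was so for 1.95% of all genes. The log2 change was 1.00 ± 0.32 (adjusted p = 0.0446, edgeR). It did not pass without mouse 1, 2 or 3 (adjusted p = 0.109, 0.143 and 0.1203), in pairs alone (0.228), with no filter on low counts (0.252), with Ace and Lct kept as landmarks (0.0813) or when total UMIs were the only scaling (0.76, adjusted p = 0.105). That scaling moved the median of all genes at the tip from -0.08 to -0.37 on the log2 scale, with 230 genes higher and 685 lower, and the share of UMIs in the 10 most abundant genes had medians of 22.3%, 30.7% and 38.85% in crypt, mid-villus and tip clumps. With the mouse as a block, 4 of the 9 genes passed (27.4% of all genes). These were Sis, Alpi, Enpep, at -0.96 (adjusted p = 0.00244, against 0.1201 without the block), and Anpep, at -0.60 (adjusted p = 0.0291, against 0.417).

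Near-identical relatives could share reads with Alpi, and how such reads were counted is not known. Of the other intestinal and placental-like alkaline phosphatase genes, Akp3 had 1 UMI in all zoned clumps and Alppl2 had 37, all in crypt clumps.

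For Treh and Alpi the CPM rose from mid-villus to tip in all 5 mice (7.18% of all genes), and Sis, Lct, Anpep, Dpp4 and Enpep were lower at the tip in all 5 (22.6%). Treh reached 217, 259, 262, 281 and 390.2 CPM at the tip (282 ± 64.9), a log2 difference of 0.57 that did not pass (adjusted p = 0.340, edgeR). Enpep was at 115, 98.1, 313, 146 and 97.5 CPM (154 ± 91.0), with mouse 3 above the others, and its log2 difference was -0.85 ± 0.36. It passed without mouse 3 (adjusted p = 0.0463) and with mouse 6 included (adjusted p = 0.0382). Anpep was at 2691, 1379.9, 3279.7, 1167 and 1346 CPM (1973 ± 951), a log2 difference of -0.50.

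The 4 remaining genes differed less between mid-villus and tip. Lct was at 403, 355, 519.9, 808 and 419 CPM at the tip (501 ± 182), Dpp4 at 399, 383, 497, 348 and 185 CPM (362 ± 113), Mme at 235, 418, 315, 281 and 117 CPM (273 ± 110.2) and Ace at 275, 280.2, 286, 292 and 605 CPM (348 ± 144). The mid-villus and tip ranges of all 4 overlapped. Their log2 differences were -0.43, -0.30, -0.07 and -0.12, with adjusted p of 0.377, 0.531, 0.958 and 0.877 (edgeR). When the landmark lists kept Ace and Lct, these genes helped to place the clumps, and their differences were -1.17 and -0.997, to which no test applies.

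For Lct, Anpep, Mme, Dpp4 and Ace the direction between mid-villus and tip depended on where the zones were cut. With bins 3-4 as mid-villus and bins 5-6 as tip, 6 of the 9 genes passed, all of them higher at the tip (27.5% of all genes passed in either direction). They were Alpi (1.65, adjusted p = 0.000112, edgeR), Treh (2.15, adjusted p = 4.61e-05), Ace (1.44, adjusted p = 0.000224), Lct (1.28, adjusted p = 0.00182), Dpp4 (0.87, adjusted p = 0.00874) and Mme (1.52, adjusted p = 0.0166). Anpep was at 0.60 (adjusted p = 0.193) and Enpep at -0.04 (adjusted p = 0.937).

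Compared with the crypt, tip clumps were higher in 7 of the 9 genes (53.5% of all genes passed, 23.6% higher). The changes were 4.07 for Treh, 3.58 for Mme, 3.29 for Alpi, 3.08 for Ace, 3.02 for Lct, 2.10 for Dpp4 and 1.76 for Anpep on the log2 scale. Enpep was at 0.71 (adjusted p = 0.0976, edgeR), or 0.68 with the block (adjusted p = 0.0146) and 2.16 with zones cut by bins (adjusted p = 1.80e-06). In pairs alone Anpep was at 1.32 and did not pass (adjusted p = 0.0547).

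To resolve the order, clumps were also placed in 6 bins by the share of tip landmarks among tip and crypt landmark UMIs, with limits common to all mice. Mean Sis levels over bins 1 to 6 were 141, 838, 2389, 2545, 1469.6 and 515 CPM. Sis peaked in bin 4 in 4 mice and in bin 3 in mouse 1. In bin 4 it was at 2918, 3753, 3866, 1200.4 and 987 CPM in mice 1 to 5, and in bin 6 at 488, 956, 732, 196 and 204 CPM, lower in each mouse.

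Enpep followed a similar course, with its mean peak in bin 4 and 48.3% of that level in bin 6. Lct, Anpep, Mme, Dpp4 and Ace had their mean peaks in bin 5. In bin 6 they were at 61.5%, 63.2%, 74.4%, 60.9% and 86.7% of that peak. Lct peaked in bin 5 in each of the 5 mice, whereas the peak of Ace lay in bin 4, 5 or 6 depending on the mouse.

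Alpi and Treh rose through all bins and peaked in bin 6 in every mouse. Alpi had means of 26.4, 128, 333, 617, 914 and 1527 CPM, and in bin 6 it was at 1393, 1363, 1683, 1702 and 1497 CPM in mice 1 to 5. Treh had means of 2.25, 15.9, 46.0, 155, 266 and 371 CPM. Bin 6 of mouse 4 held 6 clumps.

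**Figure D2:**
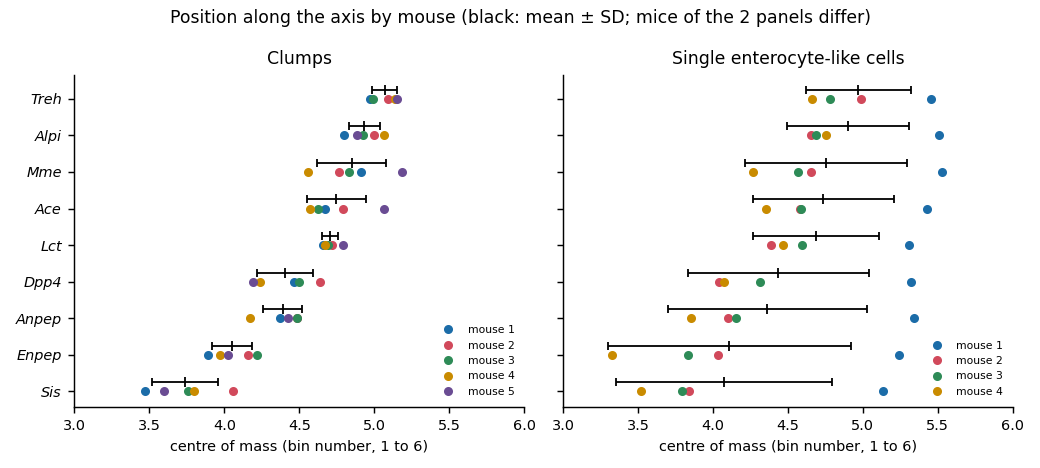
Centre of mass of each gene over the 6 bins, in bin units, with 1 point per mouse and bars for the mean and SD, in clumps and in single enterocyte-like cells. In clumps, Sis had the lowest centre in all 5 mice, and the means ran from 3.74 for Sis to 5.07 for Treh. In single cells, the centres of mouse 1 rest on bins 5 and 6 only.

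The centre of mass of a gene over the bins gave its position as 1 number per mouse, which does not depend on the gene's overall level. The mean centres in clumps were 3.74 ± 0.22 for Sis, 4.05 ± 0.13 for Enpep, 4.39 ± 0.13 for Anpep, 4.41 ± 0.19 for Dpp4, 4.71 ± 0.05 for Lct, 4.75 ± 0.20 for Ace, 4.85 ± 0.23 for Mme, 4.93 ± 0.10 for Alpi and 5.07 ± 0.08 for Treh (SD, n = 5). Of the 36 pairs of genes, 29 had the same order in all 5 mice. An exact sign-flip permutation test (two-sided) over 5 mice cannot go below p = 0.0625, and the smallest value adjusted over the 36 pairs was 0.0776. Sis lay before Enpep by 0.315 ± 0.165 bins and Alpi before Treh by 0.135 ± 0.0829, each in 5 of 5 mice. In single cells neither pair kept its order, with Sis before Enpep in 3 of 4 mice and Alpi before Treh in 2 of 4. The single-cell centres of mouse 1 rest on bins 5 and 6 only. The pairs Anpep and Dpp4, Lct and Ace, Lct and Mme, Mme and Ace, Mme and Alpi, Ace and Alpi, and Mme and Treh changed order between mice. The disaccharidases thus stood at both ends and in the middle of the order, and the aminopeptidase genes Anpep and Enpep both lay in its lower part.

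The single cells offered the same comparison in cells without neighbours. Of 5199 cells kept, 2480 fell in a cluster called enterocyte-like, with 11 enterocyte markers, none of them a member, among its 50 leading genes. Clusters were built without the 9 genes. With the same landmarks, 382 enterocyte-like cells were placed in the crypt (mice 2, 3 and 4), 682 in the mid-villus and 1362 at the tip. Mouse 1 had 5 or more cells in bins 5 and 6 only. Mitochondrial genes took a median of 27.8% to 32.8% of UMIs in these sums, against 5.81% to 9.78% in clumps, where mouse 5 stood apart at 18.6% to 21.7%. This share was higher in mid-villus than in crypt clumps in all 5 mice, and its median was highest at the tip in single cells. Its part in the differences between zones was not tested.

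In single cells, 7 of the 9 genes were higher in the mid-villus than in the crypt. The changes were 2.27 for Treh, 2.09 for Mme, 1.91 for Ace, 1.73 for Lct, 1.55 for Dpp4, 1.49 for Alpi and 1.01 for Anpep on the log2 scale, and 27.4% of the 4413 genes tested passed, with 10.1% higher (445 genes higher and 766 lower, or 190 and 766 with total UMIs as the only scaling). Anpep did not pass under that scaling (0.75, adjusted p = 0.0971, edgeR). Sis, at 1390.3, 1019.6 and 1484 CPM in the crypt cells of mice 2, 3 and 4 and 1799, 1875 and 1363 CPM in their mid-villus cells, changed by 0.32 (adjusted p = 0.596, edgeR). Enpep changed by 0.53 (adjusted p = 0.294). The mid-villus group of this fit also held mouse 1, which had no crypt sum. It was at 557 CPM for Sis and 99.3 CPM for Enpep. With the mouse as a block all 9 genes passed (35.7% of all genes), Sis at 0.49 (adjusted p = 0.0219) and Enpep at 0.66 (adjusted p = 0.00993). Sis also passed, at 0.87 (adjusted p = 0.0425), in cells with at most 30% mitochondrial UMIs.

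From mid-villus to tip, Sis and Enpep fell and Alpi rose in single cells, and 30.7% of all genes passed (15.8% higher, 14.9% lower). Sis went from 557, 1799, 1875 and 1363 CPM in mice 1 to 4 to 102, 441, 539.9 and 277 CPM, a log2 change of -1.41 ± 0.37 (adjusted p = 0.00984, edgeR). All 4 tip values lay below all 4 mid-villus values. Without mouse 2 or 4 the adjusted p was 0.0614 and 0.0620.

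Enpep went from 99.3, 264, 281 and 294 CPM to 36.9, 64.1, 109.8 and 56.0 CPM, lower in each mouse. Its log2 change was -1.18 ± 0.33 (adjusted p = 0.0134, edgeR), and 0.0896 and 0.0925 without mouse 2 or 4. Alpi went from 337, 433, 239.7 and 445 CPM to 409, 582, 518 and 718 CPM, higher in each mouse, a log2 change of 1.26 ± 0.22 (adjusted p = 0.000835).

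With total UMIs as the only scaling the median of all genes at the tip moved from -0.03 to -0.72, the calls from 698 higher and 656 lower to 155 and 1547, and Alpi was at 0.60 (adjusted p = 0.113). Under that scaling Lct, Anpep, Mme and Dpp4 passed as lower (38.6% of all genes passed in either direction). Anpep was at -0.62 with TMM scaling (adjusted p = 0.0524), and it passed as lower with the size factors of DESeq2 (0.0345), in the test of DESeq2 (0.0238) and without mouse 3 (0.0343). With the mouse as a block, which raised the share of all genes that passed to 40.2%, Anpep (-0.64, adjusted p = 0.000563) and Lct (-0.43, adjusted p = 0.0218) passed as lower and Treh (0.49, adjusted p = 0.0161) as higher. Treh was at 0.52 without the block (adjusted p = 0.101), and passed at 0.71 with at most 30% mitochondrial UMIs (adjusted p = 0.0424). Treh was at 129, 205, 148 and 195 CPM in mid-villus and 130.02, 127, 156 and 198 CPM in tip cells, so that its CPM was higher in 3 mice and lower in mouse 2.

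**Figure D3:**
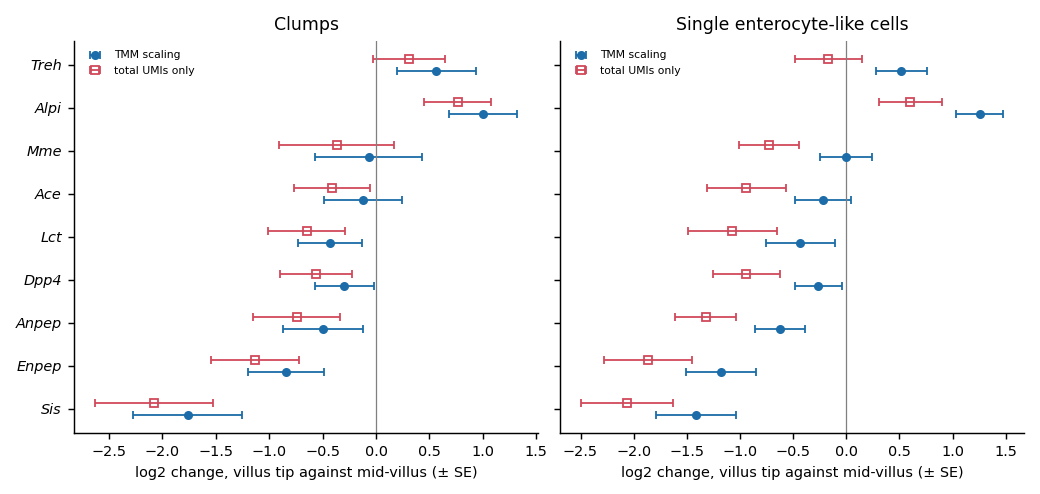
Log2 change of each gene from mid-villus to villus tip in clumps and in single enterocyte-like cells (edgeR, bars of 1 SE). Sis was at -1.76 and -1.41, and Alpi at 1.00 and 1.26.

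In the bins of single cells, Alpi peaked in bin 6 in 4 of 4 mice, of which mouse 1 had bins 5 and 6 only. Mean Sis peaked in bin 4 and was at 15.8% of that level in bin 6. Mean Enpep was at 24.1% of its bin 4 peak in bin 6. Treh differed from the clumps, as its mean peaked in bin 5 and was at 87.5% of that level in bin 6, where it was lower than in bin 5 in 3 of 4 mice. Mean Anpep and Dpp4 peaked in bin 4, and mean Lct, Mme and Ace in bin 5. By mouse, Dpp4 peaked in bin 5 in mice 1, 2 and 3 and in bin 4 in mouse 4. Its bin 5 mean was at 97.4% of its bin 4 mean. Means of bins 1 to 4 were over mice 2 to 4, the mice with 5 or more cells there. Those of bins 5 and 6 also held mouse 1, so percents of a bin 4 peak compare unlike sets of mice. Of the 36 pairs of genes, 26 had the same order of centres in all 4 mice, where the exact permutation test cannot go below p = 0.125. The centres of mouse 1, at 5.14 to 5.53, rest on bins 5 and 6 alone and give no position over the whole axis.

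Across cell types, all 9 genes were higher in enterocyte-like cells than in each of 4 other types, by edgeR on sums per mouse. The shares of all 4543 genes that passed were 22.8% against goblet-like cells (16.6% higher), 26.1% against tuft-like cells (16.9% higher), 33.6% against enteroendocrine-like cells (22.0% higher) and 55.7% against immune-like cells (35.6% higher). The 9 genes passed the filter on low counts through the enterocyte-like cells, the type in which they were high. The count of 9 of 9 was therefore largely set by that filter, and the shares of all genes are no measure for it. The other types held 2 to 31, 0 to 12, 2 to 306 and 16 to 165 UMIs of each gene, so that the size of most differences was set by few counts. With total UMIs as the only scaling the calls over all genes changed from mostly higher to mostly lower (285 and 503, 291 and 1280, 269 and 1661, and 618 and 2510). Treh did not pass in DESeq2 against goblet-like (adjusted p = 0.122), tuft-like (0.0799) or immune-like cells (0.0867), nor in edgeR against tuft-like cells without mouse 2 (0.0711). Low levels of the genes were found in other types, and their source was not tested. Anpep, for example, was at 70.0 to 100.1 CPM in the immune-like cells of mice 2 to 4. In mouse 1 it was at 279.9 CPM, from 3 UMIs in 5 cells. In enterocyte-like cells it was at 511 to 1069 CPM. Enpep had 0 UMIs among the 411461 UMIs of tuft-like cells. A floor of 3 UMIs is 7.29 CPM there, so Enpep was at least 17.7-fold higher in the enterocyte-like cells of the same mice.

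Sis was the gene with the most UMIs in enteroendocrine-like cells, 306 in all. It was at 157, 1130.2, 1247 and 776 CPM in the enterocyte-like cells of mice 1 to 4 and at 489.8, 634, 365 and 88.5 CPM in the enteroendocrine-like cells, from 13, 284, 8 and 1 UMIs. The ranges overlapped, and mouse 1, whose enterocyte-like cells came from the upper villus, was higher in enteroendocrine-like cells. The log2 difference was 2.37 ± 0.69 (adjusted p = 0.00626, edgeR), against 3.18 for Dpp4 (34 UMIs in enteroendocrine-like cells). Apart from Anpep (47 UMIs), the other genes had 2 to 5 UMIs there, and the sizes of their differences are not given. It did not pass with total UMIs as the only scaling (0.88, adjusted p = 0.306) or without mouse 2, 3 or 4 (adjusted p = 0.0581, 0.0971 and 0.0521).

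A Sis UMI was found in 5 of 11, 107 of 219, 5 of 11 and 1 of 8 enteroendocrine-like cells of mice 1 to 4. In goblet-like cells it was found in 0 of 45, 9 of 80, 14 of 72 and 2 of 15 cells. In mouse 2, which held most of the enteroendocrine-like cells, the median depth of the types was alike, at 1829 UMIs in enteroendocrine-like and 1778.5 in goblet-like cells. The most Sis UMIs in a single enteroendocrine-like cell was 6 of 13, 13 of 284, 4 of 8 and 1 of 1 in mice 1 to 4.

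Sis also took another share of the UMIs of the 9 genes in these cells. Its share was 86.7%, 75.7%, 66.7% and 20.0% in the enteroendocrine-like cells of mice 1 to 4, from 15, 375, 12 and 5 UMIs. In enterocyte-like cells it was 8.06%, 28.7%, 32.4% and 18.9%, and in those of the crypt 43.9%, 44.4% and 38.5% in mice 2 to 4. Immune-like cells of mice 2 to 4 were at 26.7%, 35.6% and 22.2%, below the enterocyte-like cells of the same mouse in mouse 2 and above them in mice 3 and 4. The higher share of Sis was seen in enteroendocrine-like cells of mice 1 to 3, and mouse 4 had 5 UMIs in all. Doublets were not called, and their part in the Sis counts was not tested.

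Dpp4, which is also known on lymphocytes, was at 141, 213, 217 and 283 CPM in enterocyte-like cells and at 37.7, 67.0, 91.4 and 88.5 CPM in enteroendocrine-like cells, where 34 UMIs were counted. In immune-like cells it was at 0, 34.3, 31.1 and 40.03 CPM. As a share of the level in the enterocyte-like cells of the same mouse, this was a median of 14.3%, beside 13.9% in goblet-like, 26.5% in tuft-like cells (7 UMIs), 31.3% in enteroendocrine-like cells and 31.03% in the red cell and plasma cell-like group (52 UMIs).

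The other genes of brush border digestion were taken from 4 lists, also chosen with earlier results of these data known. Of 18 other brush border hydrolases, 17 were in the clump table and 12 could be tested, of which Enpp3 and Nt5e are landmarks and were set aside. All 10 others were higher in mid-villus than in crypt clumps (16.1% of all genes), with a median log2 change of 2.75. They included Enpp7 (4.19), the alkaline sphingomyelinase, and Asah2 (3.16), the neutral ceramidase. None of the 10 passed between mid-villus and tip (median 0.26, with 12.4% of all genes passing). With the mouse as a block 2 of the 10 were lower at the tip, Mgam (-0.59, adjusted p = 0.0231, edgeR) and Xpnpep2 (-0.68, adjusted p = 0.0348), beside 27.4% of all genes in either direction. The landmark Enpp3 was at 3.91 from crypt to mid-villus and at 3.55 from mid-villus to tip, where the landmark Nt5e was at 6.45. No test applies to either landmark. Mgam, the maltase-glucoamylase that is the closest relative of Sis in the list, rose by 1.41 and was at -0.54 at the tip without the block (adjusted p = 0.281, edgeR). In single cells 6 of 9 were higher in the mid-villus (10.1% of all genes) and none passed at the tip (30.7% of all genes). With the block these became 9 of 9 (35.7%) and 2 lower, again Mgam and Xpnpep2 (40.2%).

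Of 8 cytosolic peptidases, which finish the breakdown of peptides inside the cell, 4 were higher in the mid-villus (16.1% of all genes), namely Pepd (2.35), Lap3 (2.11), Cndp2 (1.72) and Xpnpep1 (1.45). Tpp2 was lower (-0.78, adjusted p = 0.0412, edgeR), beside 39.6% of all genes that passed in either direction. The other 3 did not pass, of which Dpp3 was lower with the mouse as a block (-0.64, adjusted p = 0.0351). None passed at the tip (12.4% of all genes), or 1 with the block (27.4% of all genes), Cndp2 (-0.60, adjusted p = 0.0375). All 7 carriers that take up the products were higher in the mid-villus (16.1% of all genes), with a median of 2.07. Among them were the amino acid carrier Slc6a19 (3.66), the peptide carrier Slc15a1 (3.58), the glucose and fructose carrier Slc2a2 (2.72) and the amino acid carrier subunit Slc3a1 (2.07). At the tip none of the 7 passed (12.4% of all genes). Slc2a2, at -1.80, was the nearest to it (adjusted p = 0.0509), passed with the mouse as a block (adjusted p = 1.83e-05), and was lower in single cells (-1.56, adjusted p = 0.00532). With the block 5 of the 7 passed at the tip in clumps (27.4% of all genes), the sugar carriers Slc2a2, Slc5a1 and Slc2a5 lower and the amino acid carriers Slc6a19 and Slc3a1 higher, and the same 5 passed in single cells in the same directions (40.2% of all genes).

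Of 7 transcription factors known to act on such genes, 6 could be tested. From crypt to mid-villus 1 of the 6 passed (39.6% of all genes), Cdx1, which was lower (-1.09, adjusted p = 0.0161, edgeR). From mid-villus to tip 1 of the 6 passed (12.4% of all genes), Hnf4a, which was higher (0.81, adjusted p = 0.0391). Hnf4a was also higher at the tip in single cells (0.98, adjusted p = 0.00568), where 30.7% of all genes passed. The others did not pass in these comparisons of clumps, except that Hnf4g was higher in the mid-villus with the block (1.07, adjusted p = 6.03e-05, against 0.0546 without it). With the block 54.1% of all genes passed there.

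The genes whose levels followed each member most closely were found by Pearson's correlation of log2(CPM + 5) over the 15 sums of 5 mice and 3 zones, among 7162 genes. The sums share mice and zones, so the values are a description. Treh and Ace both had the peptide carrier Slc15a1 first, at 0.98 and 0.975. Anpep had the peptidases Pepd (0.975), Xpnpep2 (0.968) and Mep1b (0.960), and Alpi had Cdhr5 (0.986), Apoa1 (0.984) and Slc27a4 (0.978). Mme had Cyb5r3 (0.995), Ephx2 and Acsl5, and Lct had Fbln1 (0.963), Gde1 and Ces2e. Dpp4 had Sectm1b (0.974), H2-Q2 and Sgpl1. The lowest best values were those of Sis, with Gm6316 (0.937), Aco1 and Chchd7, and of Enpep, with Gng12 (0.914), Entpd5 and Tfg.

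The zone changes of the 9 genes were also compared between larger clumps and pairs. No gene of 5976 passed an interaction test of edgeR for mid-villus against crypt or for tip against mid-villus (0.0% called, with 50 and 169 genes at an unadjusted p under 0.05), and none passed with the mouse as a block. Sis changed from mid-villus to tip by -1.74 in pairs and by -1.82 in larger clumps. From crypt to mid-villus the values lay further apart, at 2.44 and 3.91 for Lct, 2.84 and 4.48 for Mme and 2.35 and 3.52 for Ace on the log2 scale, differences that did not pass.

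Mouse 6, whose clumps were sorted above 2n and could include single cells, was used as a further animal without a test. Sis was at 782, 1920.3 and 141 CPM in its crypt, mid-villus and tip clumps, Enpep at 191, 406 and 115 CPM, and Alpi at 172, 576 and 949 CPM. Treh was at 36.04, 275 and 186 CPM, lower at the tip than in the mid-villus, unlike in mice 1 to 5. The other 5 genes were highest in the mid-villus.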

How the data were processed

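Clumps and single cells of mouse jejunum were sorted into plates, whose 384 well barcodes are the same on every plate, and the 3′ ends of their mRNA were sequenced (MARS-seq). The authors aligned reads to GRCm38 with zUMIs and STAR and deposited raw UMI counts as a table of clumps (17162 wells, 38454111 UMIs) and another of single cells (16850 wells, 39137313 UMIs), with no normalization and, as the values show, no filter. Per the submitters' processing notes, bcl2fastq 2.15.0.4 was used. The 4 empty wells per plate are not named, so background was not subtracted.

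Clumps needed 200 genes or more, over 500 UMIs and a mitochondrial share of at most 30%. They took the zone whose landmark list (30 crypt, 8 mid-villus and 30 tip genes) correlated best, and the 2% with the lowest landmark share were left out. Cells within 200-7000 UMIs and 150-1500 genes, with a mitochondrial share up to 40%, were clustered with scanpy 1.11.5 and named from marker lists, and no doublet caller was run. Eta, which sets the bins, was the tip landmark sum over the tip and crypt landmark sums. Groups of under 5 wells in a mouse were dropped, and landmarks were left out of counts of genes called.

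UMIs summed per mouse were compared in edgeR 4.0.16 (R 4.3.3, quasi-likelihood, TMM, filterByExpr, Benjamini-Hochberg over all genes, threshold 0.05). The fit was also run on simulated counts, which held no effect of the mouse. That simulation therefore says nothing on sums that share a mouse. The p-values measure the spread between these mice. Zones of 1 mouse come from the same animal, and their deviations from the zone means correlated at 0.186 to 0.534 in clumps and at 0.129 to 0.519 in single cells (-0.0101 to 0.550 between cell types). A block for the mouse was an alternative, as were DESeq2 1.42.0 and its size factors, no filter, total UMIs as the only scaling (chosen after seeing the data), other filters, zones and cell types, subtraction of the 4 lowest well positions, and each mouse left out.

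The 9 genes and the 4 lists were chosen with earlier results of these data known. From each list, up to 4 genes with the largest change past the threshold were named, and for each member the 3 genes most alike. The values of 1 gene that this rule names are not reported here. Mgam, Tpp2 and the genes named for their values with the block were chosen after their values were seen. Promoters are RefSeq's.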

Additional observations from a re-analysis of the deposited data

Results flagged for a closer look

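In 19 of 90 groups of 4 or 5 mice, the highest or lowest mouse stood apart from the others (a gap above Dixon's critical value, which chance passes in about 1 in 20 groups). Only 4 of the 19 rested on over 5 UMIs. Treh in mid-villus clumps was at 152 CPM in mouse 1 and at 231 to 262 in the others. Ace in tip clumps was at 605 CPM in mouse 5 (62 UMIs) and at 275 to 292 in the others. Enpep in tip clumps was at 313 CPM in mouse 3 and at 97.5 to 146 in the others. Enpep in mid-villus enterocyte-like cells was at 99.3 CPM in mouse 1 and at 264 to 294 in the others.

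The other 15 rested on 5 UMIs or fewer. In the 5 immune-like cells of mouse 1, Lct was at 373 CPM and Treh, Anpep, Mme and Alpi at 279.9 CPM. In enteroendocrine-like cells of mouse 2, Lct and Treh were at 6.70 CPM, Mme at 11.2 CPM and Ace at 4.47 CPM, with the other mice at 0. Enpep was at 45.7 CPM in the enteroendocrine-like cells of mouse 3 and at 39.4 CPM in the goblet-like cells of mouse 4, and Alpi at 88.5 CPM in the enteroendocrine-like cells of mouse 4, each from 1 UMI. Treh was at 6.35 CPM in the red cell and plasma cell-like group of mouse 3. Sis was at 0 in the goblet-like cells of mouse 1, and Ace at 0 in the red cell and plasma cell-like group of mouse 1.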

How the results depend on the processing

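Over 99 results for single members and 1026 alternative values, 950 kept their direction and their side of the threshold, 28 lost the call, 27 gained it and 21 changed sign. For mid-villus against crypt, 8 members passed without any 1 mouse, and the genes called ranged from 1626 (without mouse 3) to 3206, against 2842, or 1405 in pairs only. For tip against mid-villus, 2 members and 891 genes passed. These became 1 member with total UMIs as the only scaling, 1 and 492 with no filter, 4 and 1967 with the mouse as a block, 6 and 2096 with zones by eta, and 0 and 395 in pairs only. Leaving out 1 mouse gave 0 to 2 members and 318 to 1080 genes (318, 357 and 326 without mouse 1, 2 and 3). For tip against crypt, 7 members passed without any 1 mouse, with 2405 (without mouse 3) to 4079 genes, against 3837, or 2329 in pairs only.

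For goblet-like, tuft-like, enteroendocrine-like and immune-like cells, the genes called were 1847, 2146, 3189 and 5814 with no filter and 637, 747, 850 and 1368 on plates not named CD24, against 1036, 1187, 1528 and 2529. Without 1 mouse they were 358 to 1046, 293 to 1440, 456 to 1837 and 1119 to 3828, each lowest without mouse 2, and 9, 8 to 9, 8 to 9 and 9 members passed. In single enterocyte-like cells, 7 members and 826 to 1214 genes passed in the mid-villus without 1 mouse. At the tip 3 members passed, 6 with total UMIs (38.6% of genes), 6 with the block (40.2%) and 1 to 4 without 1 mouse, with 637 to 1170 genes against 1354 (637, 716 and 710 without mouse 2, 3 and 4).

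Signs changed from mid-villus to tip with zones by eta for Lct (1.28), Anpep (0.60), Mme (1.52), Dpp4 (0.87) and Ace (1.44), all but Anpep past the threshold, and from crypt to tip for Sis (1.38, past the threshold). In pairs only, Mme was at 0.028 and Ace at 0.015. Without 1 mouse, Mme ranged from -0.17 to 0.14 and Ace from -0.52 to 0.25. In single cells Treh was at -0.17 with total UMIs and Mme at 0.067 with at most 30% mitochondrial UMIs. Without 1 mouse Mme ranged there from -0.28 to 0.11 and Ace from -0.40 to 0.0031, and Sis from crypt to mid-villus from -0.0012 to 0.53. The block moved the Sis difference between larger clumps and pairs to 0.061. The blocked values that changed a call of the 9 genes stand beside the results. Among the genes of the 4 lists the block added 25 calls over all comparisons and removed 0. With DESeq2's size factors the median of all genes moved from -0.05 to -0.26 in the mid-villus. In pairs only the centres of Sis, Dpp4, Enpep and Alpi were 3.49, 4.64, 3.81 and 4.75, and with 4 bins those of Lct, Treh and Anpep were 4.89, 5.18 and 4.53. The causes were not tested.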
